A study of Mus musculus with 48 samples.

Results

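Histone marks at gene starts were set against RNA level in 1 sorted cell population, pre-bone, cartilage and stromal progenitors (pBCSP) of control mice. The members are the 6 libraries labelled pBCSP and WT that have a processed file, out of 48 samples in the series: 2 RNA libraries, 1 library each for H3K4me1 and H3K4me3, and 2 for H3K27ac. The mice were C57BL/6 at postnatal day 3, and the cells came from their limbs. WT here means the genotype Ptipf/f without a Cre transgene, so these controls carry the same floxed Ptip alleles as the knockout animals of the series, which were not used. Ptip (now Paxip1) encodes an adaptor protein of H3K4 methyltransferase complexes. The sources used here do not give the sort gate, and the labels do not say whether replicate libraries came from separate animals. Each ChIP library was compared as 1 list of peaks, and both H3K27ac lists were kept apart because list 1 has the layout of broad peaks and list 2 that of narrow peaks.

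H3K4me3 is laid down around active and poised transcription start sites and is recruited to CpG islands, stretches of unmethylated DNA rich in CG pairs. H3K4me1 marks enhancers and the flanks of active promoters, and H3K27ac, an acetylation, marks promoters and enhancers that are in use. pBCSP lie between the skeletal stem cell and the committed progenitors of cartilage, bone and stroma, and growing limbs of newborn mice are rich in cartilage.

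Of 55487 listed genes, 21295 protein-coding genes could be placed on the mouse build GRCm38.p6, and 17116 of these (80.4%) also had a strand and at least 1 start in the RefSeq promoter table. A gene was called marked when a peak lay within 1000 bases of any of its listed starts. Level is CPM, the counts scaled to a common library size after TMM normalisation, averaged over RNA replicates 1 and 2. Genes with a read were ranked by this mean into 10 deciles, decile 1 lowest and decile 10 highest, and 5480 coding genes with no read in either library formed a group of their own. CPM is not divided by length, so a long mRNA ranks above a short one present in as many copies, and per-length ranks were not computed. In bulk RNA, fewer cells that express a gene and less RNA per cell cannot be told apart.

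The promoters of 4 genes show the range met below. They are the 250 bases before a RefSeq start in GRCm38.p6, written 5′ to 3′ on the gene's strand, with CG pairs and the motif TATAAA in capitals. Ubb (ubiquitin) had all 3 marks and many CG pairs, and the first of its 2 listed starts is shown. Sparc (the matrix protein osteonectin) had all 3 marks and few CG pairs. Matn1 (the cartilage matrix protein matrilin 1) had H3K4me1 only, and Acta1 (skeletal muscle actin) had no mark.
Ubb, chr11:62550921-62551170, plus strand: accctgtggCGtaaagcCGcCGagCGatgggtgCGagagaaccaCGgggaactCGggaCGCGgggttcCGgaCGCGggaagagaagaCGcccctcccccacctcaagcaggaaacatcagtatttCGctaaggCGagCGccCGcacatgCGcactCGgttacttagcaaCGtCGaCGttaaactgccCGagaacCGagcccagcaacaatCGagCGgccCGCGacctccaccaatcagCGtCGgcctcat
Sparc, chr11:55420081-55420330, minus strand: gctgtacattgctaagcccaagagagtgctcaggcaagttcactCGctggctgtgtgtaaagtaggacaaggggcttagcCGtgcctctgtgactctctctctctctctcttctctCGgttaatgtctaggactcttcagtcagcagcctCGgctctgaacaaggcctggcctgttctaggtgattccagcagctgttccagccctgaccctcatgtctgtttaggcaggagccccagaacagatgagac
Matn1, chr4:130944135-130944384, plus strand: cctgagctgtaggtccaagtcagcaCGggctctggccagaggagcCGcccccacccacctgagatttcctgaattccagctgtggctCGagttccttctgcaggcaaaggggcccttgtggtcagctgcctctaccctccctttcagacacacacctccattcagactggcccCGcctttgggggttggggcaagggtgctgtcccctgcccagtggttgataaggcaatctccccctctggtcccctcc
Acta1, chr8:123894776-123895025, minus strand: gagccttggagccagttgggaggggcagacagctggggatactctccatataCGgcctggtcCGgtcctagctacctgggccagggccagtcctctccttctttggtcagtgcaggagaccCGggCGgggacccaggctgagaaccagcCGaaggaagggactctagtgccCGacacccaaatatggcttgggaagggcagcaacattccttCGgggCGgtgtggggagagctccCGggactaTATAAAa

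These stretches hold 30 CG pairs in Ubb, 4 in Sparc, 4 in Matn1 and 9 in Acta1. Ubb stood at 5394 CPM in RNA replicate 1 and 5933 CPM in replicate 2. Sparc stood at 21419 and 16551 CPM, Matn1 at 442 and 447 CPM, and Acta1 at 43.8 and 50.7 CPM. Sparc and Matn1 thus had equally few CG pairs and both were in the highest decile, yet Sparc lay under an H3K4me3 peak of 9386 bases and Matn1 had no H3K4me3 peak within 81.8 kb.

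The RNA libraries of WT pBCSP held 22670899 and 18072823 counts, where 3 counts are 0.134 and 0.162 CPM. Their levels had a Spearman correlation of 0.974 over the 15815 coding genes with a read, and the median absolute log2 difference was 0.38 over genes read in both and 0.20 in the highest decile. Of the 1582 genes of the highest decile, 1347 (85.1%) were in the highest decile of each library taken alone. In the lowest decile 74.7% of genes had a read in 1 library only, so the order of genes there is little more than counting error. The peak lists differed widely in length: 28612 H3K4me3 peaks over 41.9 Mb, 120792 H3K4me1 peaks over 172 Mb, 6879 H3K27ac peaks over 4.42 Mb in list 1 and 3811 over 0.991 Mb in list 2. A gene without an H3K27ac peak may therefore lack the mark or lie under the reach of these lists.

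With the full peak lists, H3K4me3 was rare at genes without RNA and reached a ceiling in the upper deciles, whereas both H3K27ac lists went on increasing to decile 10. This ceiling depends on list length: with every list cut to 3811 peaks, H3K4me3 was at 50.7% of the highest decile. Over all 17116 genes with a listed start, H3K4me3 was at the start of 65.1%, H3K4me1 of 66.3%, H3K27ac list 1 of 15.0% and list 2 of 5.84%. H3K4me3 was found at 9.37% of genes with no read, 36.8% of the lowest decile, 77.5% of decile 3, 94.7% of decile 5 and 99.0% of the highest decile (1271 of 1284 genes). H3K4me1 ran close to it, at 11.7% of genes with no read, 42.2% of the lowest decile and 96.0% of the highest. H3K27ac list 1 was at 0.328% of genes with no read, 16.7% of decile 5, 29.7% of decile 8, 37.5% of decile 9 and 48.8% of decile 10. List 2 gave 0.0219%, 5.63%, 12.1%, 15.0% and 22.1% for the same groups. Ranking by a single RNA library moved the share of the highest decile little, to 98.9% (replicate 1) and 99.0% (replicate 2) for H3K4me3 and to 48.8% and 49.6% for H3K27ac list 1. In the lowest decile it gave 46.9% and 44.4% for H3K4me3, above the 36.8% of the mean ranking. A single-library ranking covers only genes read in that library, so these lowest deciles hold different sets of genes.

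**Figure D1:**
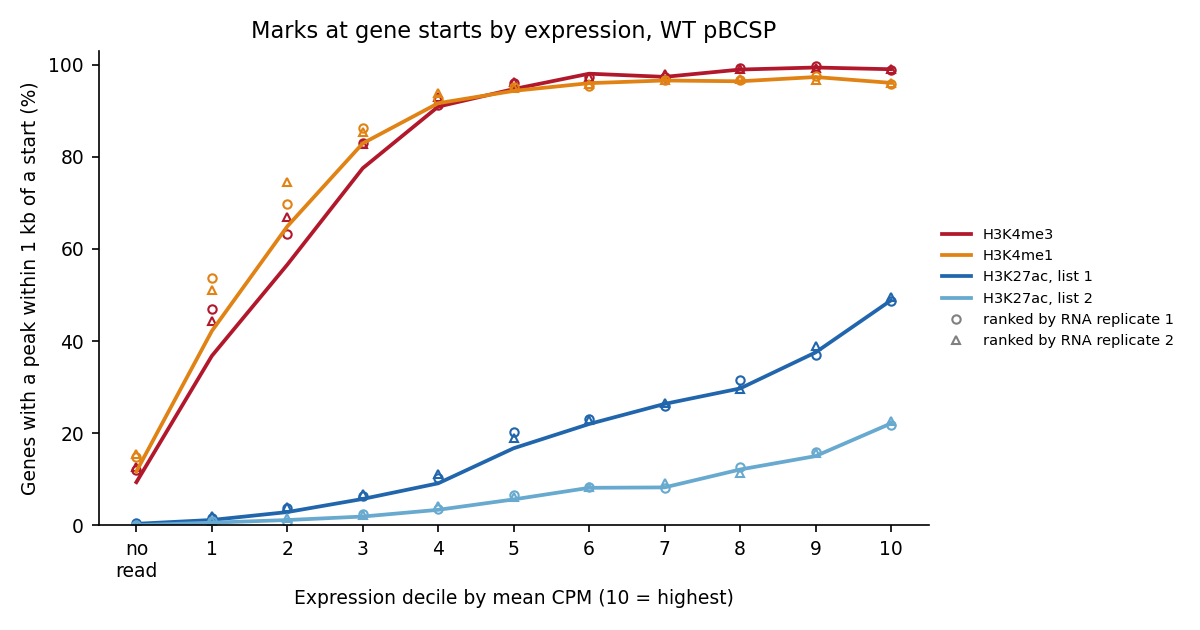
Share of genes with a peak within 1 kb of a listed start (y axis, percent) by expression decile (x axis), for 4 peak lists of WT pBCSP. Lines rank genes by the mean of both RNA libraries, and circles and triangles by replicate 1 or 2 alone. H3K4me3 and H3K4me1 pass 90% at decile 4 and stay there, while both H3K27ac lists are highest in decile 10, at 48.8% and 22.1%.

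In the highest decile all 3 marks were less frequent at the 3′ end than at the start. At the 3′ end of the same genes, H3K4me3 was within 1000 bases of 3.24% of genes with no read and 14.4% of the highest decile, and H3K27ac list 1 of 0.131% and 2.80%. H3K4me1 was at the 3′ end of 6.65% of genes with no read and 30.5% of the highest decile. When either annotated end of all 21295 coding genes was used, which needs no strand, the highest decile had H3K4me3 at 95.4%, H3K4me1 at 94.8% and H3K27ac at 44.4% (list 1) and 19.9% (list 2). Of all H3K4me3 peaks 37.5% touched the window of a listed start, against 13.5% of H3K4me1 peaks, 33.7% of H3K27ac peaks in list 1 and 26.1% in list 2. H3K4me3 peaks at starts were wider than the other H3K4me3 peaks, with medians of 1884 and 700 bases.

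Around the start the marks took different places. Among genes with a single listed start, peaks were counted in bins of 100 bases, and distances are negative before the start and positive on the transcribed side. In the highest decile (1032 such genes) H3K4me1 covered the start of 11.9% of genes, but 65.7% at 650 bases before it and 82.9% at 1350 bases after it. In deciles 1 and 2 (2078 genes) H3K4me1 covered 31.0% of starts and at most 31.5% nearby, with no gap. H3K4me3 filled that gap: it covered 97.3% of starts in the highest decile and 39.5% in deciles 1 and 2. H3K4me3 also reached further into the gene than before it: at 1550 bases after the start it covered 61.8% of the highest decile, 39.2% of decile 9 and 24.7% of deciles 5 and 6, whereas at 1550 bases before the start it covered 8.53%, 10.1% and 8.73%. H3K27ac list 1 was most frequent 250 bases after the start, at 31.0% of the highest decile against 18.5% at the start itself.

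**Figure D2:**
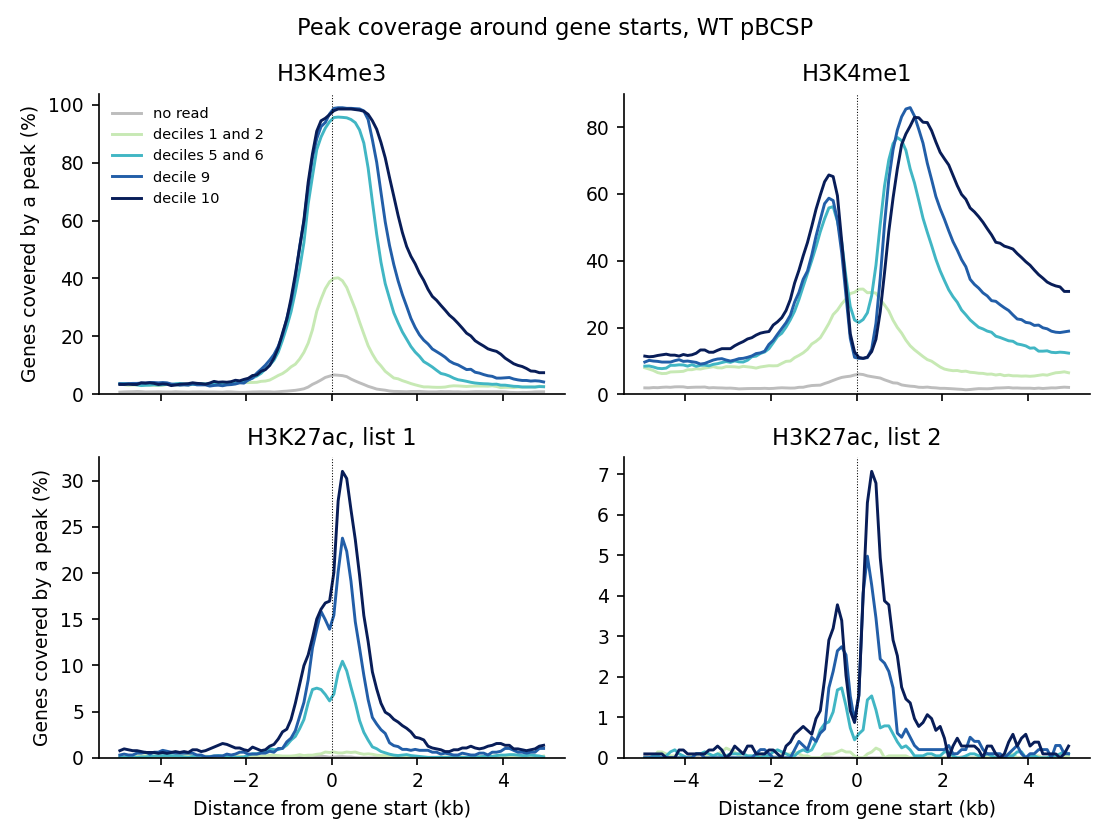
Share of genes covered by a peak (y axis, percent, a different scale in each panel) by distance from the start (x axis, kb, positive on the transcribed side) in bins of 100 bases, for genes with 1 listed start. Lines are groups of expression deciles; H3K4me1 in the highest decile drops to 11.9% at the start between shoulders of 65.7% and 82.9%, and H3K4me3 in the highest decile extends furthest into genes.

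Of the mark combinations, 3 classes held most genes. No mark was found at 5270 of the 17116 genes (30.8%), H3K4me3 with H3K4me1 at 7821 (45.7%) and all 3 marks at 2826 (16.5%), with H3K27ac counted from either list. The median level was 0 CPM without a mark, 0.26 CPM with H3K4me1 alone (695 genes), 1.69 CPM with H3K4me3 alone (442 genes), 9.52 CPM with H3K4me3 and H3K4me1, and 40.4 CPM with all 3. Within the class with all 3 marks the lower and upper quartiles were 14.2 and 109.5 CPM, and with H3K4me3 and H3K4me1 they were 1.67 and 33.1 CPM, so the ranges overlapped. Medians in each RNA library were close to these, 40.0 and 40.7 CPM with all 3 marks and 9.61 and 9.24 CPM without H3K27ac. H3K27ac without H3K4me3 at a start was rare, at 7 genes with H3K4me1 and 3 without.

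By decile, the unmarked share was 86.8% of genes with no read, 52.7% of decile 1, 13.0% of decile 3, 2.74% of decile 5 and 0.389% of decile 10. H3K4me1 alone was most frequent in decile 2, at 12.3%, and was at 0.623% of decile 10. H3K4me3 with H3K4me1 peaked in decile 4 at 76.7% and was down to 43.1% in decile 10, where all 3 marks were at 52.3%. The share with all 3 marks was higher in each decile than in the one below it, from 1.33% in decile 1.

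**Figure D3:**
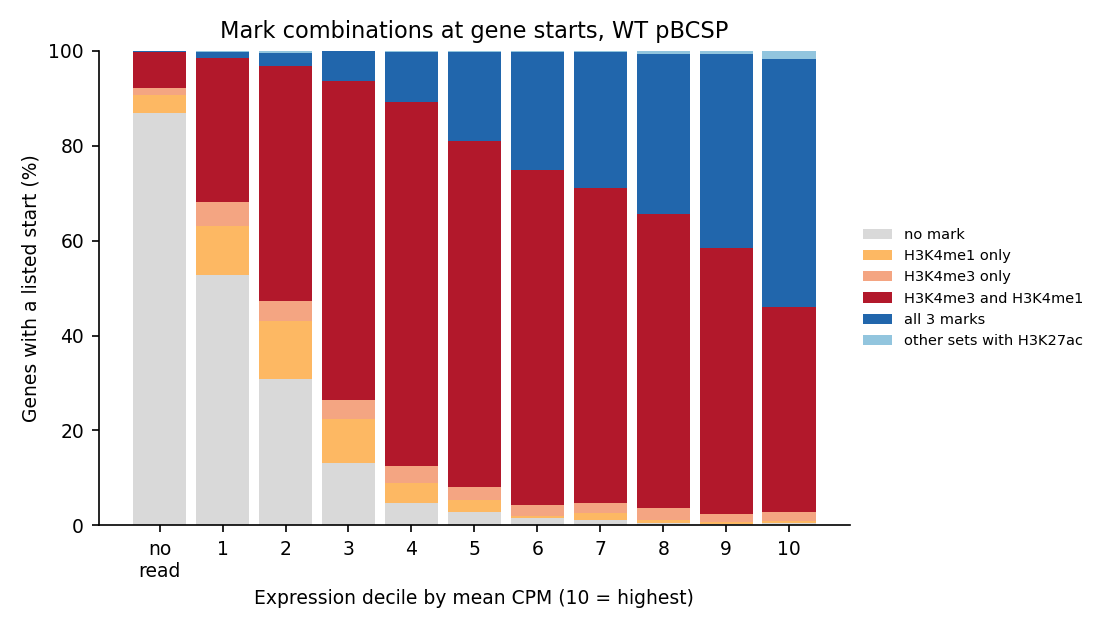
Share of genes with a listed start (y axis, percent) in each mark combination, by expression decile (x axis); bars add to 100% and H3K27ac counts from either list. The unmarked class shrinks from 86.8% of genes with no read to 0.389% of decile 10, and the class with all 3 marks reaches 52.3% there.

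The genes marked by only one of the H3K27ac lists had similar levels whichever list it was, and most starts of the shorter list 2 were also in list 1. List 1 marked 2567 starts and list 2 marked 1000; 679 were in both, which is 26.5% of list 1 and 67.9% of list 2. The median level was 61.3 CPM for genes in both lists, 36.5 CPM for list 1 only, 36.3 CPM for list 2 only and 0.788 CPM for genes in neither. H3K4me3 was at 99.9%, 99.7% and 99.1% of the genes in both, list 1 only and list 2 only.

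The strength and width of H3K4me3 peaks varied with level beyond presence or absence. The median peak at a start was 1086 bases wide at genes with no read, 1911 bases in decile 5, 2311 bases in decile 9 and 2761 bases in decile 10. Peaks over 5 kb were at 0.467% of marked genes with no read, 5.28% of decile 9 and 13.2% of decile 10. The authors' fold enrichment of the peak had medians of 7.12 (no read), 15.2 (decile 5) and 17.4 (decile 10), and so flattened where width did not. Across the 10713 marked genes with a read, Spearman's rho with CPM was 0.46 for both width and enrichment, given as a description since genes share the same libraries and neighbouring genes can share a peak. For H3K27ac the authors' enrichment of a peak hardly tracked level, with rho of 0.07 in list 1 (2552 genes) and 0.08 in list 2 (999 genes). Cut to an equal 3811 peaks each by the authors' −log10 q, the lists marked 50.7% (H3K4me3), 35.0% (H3K27ac list 1), 22.1% (list 2) and 15.97% (H3K4me1) of the highest decile, and H3K4me3 then marked 1.83% of the lowest decile.

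The widest H3K4me3 peaks lay on developmental regulators as well as on highly expressed genes. Lmna, a nuclear lamina gene, had a peak of 16347 bases and levels of 2662 and 2846 CPM in RNA replicates 1 and 2. Hoxa10 and Hoxa9, patterning genes of the HoxA cluster, shared 1 peak of 15688 bases at 44.3 and 57.6 CPM (Hoxa10) and 19.7 and 36.6 CPM (Hoxa9). Hoxa3, Hoxa5 and Hoxa6 shared another of 12356 bases, although Hoxa3 stood at 1.07 and 0.216 CPM. The other genes among the 12 with the widest peaks were Foxc1, Sdc4, Col6a3, Tnrc18, Sox6 and Tns2, with levels from 9.61 and 12.3 CPM (Tnrc18) to 7554 and 5331 CPM (Sdc4), and 3 of the 12 were in the highest decile. Among genes read in this population but absent from the promoter table, the peak at an annotated end of Trps1, a transcription factor of cartilage, was 15800 bases wide at 52.6 and 42.8 CPM.

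Promoter base composition, which neither the ranking nor the marks used, differed between the classes. The CG pairs observed over those expected from the C and G content of the 300-base promoter window had a median of 0.16 at unmarked genes, 0.23 with H3K4me1 alone, 0.73 with H3K4me3 and H3K4me1 and 0.81 with all 3 marks, against 0.57 over all genes with a start. With 0.6 or more called CpG-rich, 47.7% of all promoters were CpG-rich, 6.85% of those of genes with no read and 78.7% of those of the highest decile. At CpG-rich promoters H3K4me3 was frequent without RNA, at 64.9% of such genes with no read, 85.1% of the lowest decile and all 1011 of the highest decile. At CpG-poor promoters it was at 5.29% of genes with no read, 23.4% of the lowest decile and 95.2% of the highest (273 genes). H3K27ac list 1 was also more frequent at CpG-rich promoters, at 20.1% against 8.997% of CpG-poor ones in decile 5, 39.5% against 29.8% in decile 9 and 49.7% against 45.8% in decile 10. The H3K4me3 peaks of the highest decile were 2705 bases wide at CpG-rich and 3069 bases at CpG-poor promoters (medians), and rho between width and CPM was 0.38 (7773 CpG-rich genes) and 0.54 (2940 CpG-poor genes).

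The letters TATAAA within 45 to 16 bases before a start, on the gene's strand, were in the promoters of 3.20% of all genes with a start. The share was 6.26% among genes with no read, 0.694% in decile 8 and 2.57% in decile 10. By class it was 6.32% of unmarked genes, 6.76% with H3K4me1 alone, 1.51% with H3K4me3 and H3K4me1 and 1.34% with all 3 marks. The TATAAA in capitals in the Acta1 stretch above lies nearer the listed start than this window and is not counted here.

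**Figure D4:**
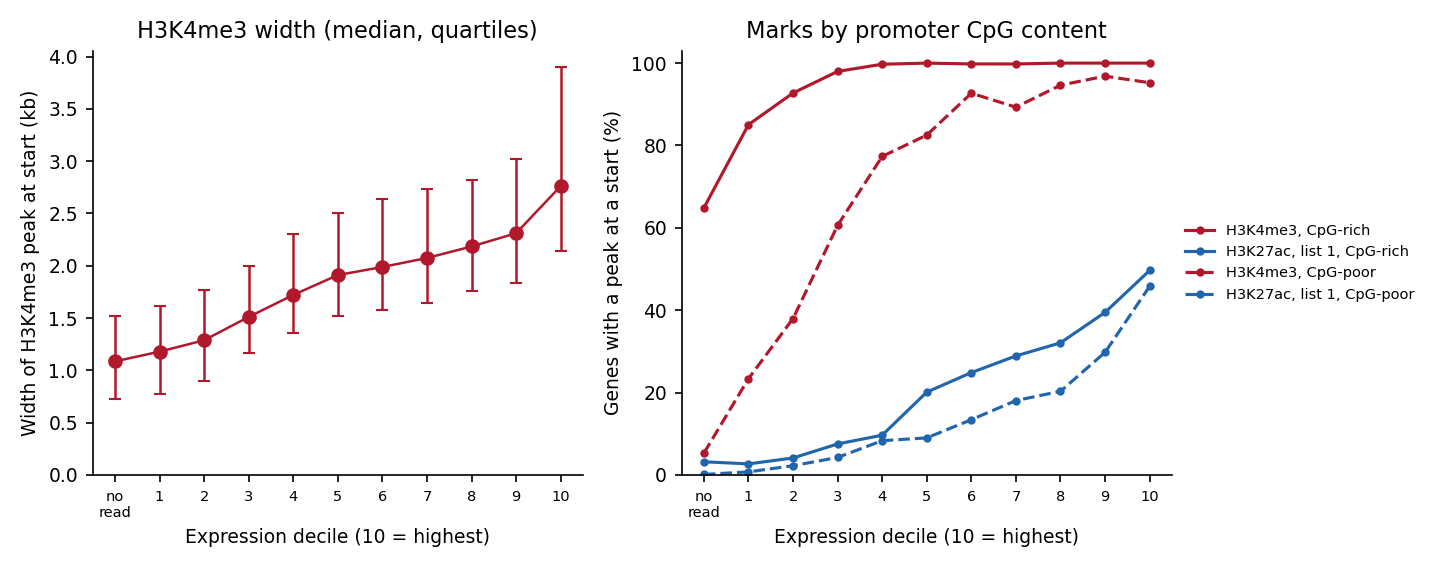
Left, width of the H3K4me3 peak at the start (y axis, kb; points are medians and bars the quartiles over marked genes) by expression decile. Right, share of genes with H3K4me3 or H3K27ac list 1 at a start (y axis, percent) by decile, with solid lines for CpG-rich and dashed lines for CpG-poor promoters; at genes with no read H3K4me3 was on 64.9% of CpG-rich and 5.29% of CpG-poor promoters.

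Each of the 20 genes with the highest level had H3K4me3 at a listed start or, where none was listed, at an annotated end. Col2a1, the main cartilage collagen, stood at 30700 CPM in replicate 1 and 28148 CPM in replicate 2 and had H3K4me3 (peak of 9604 bases) and H3K4me1 at an annotated end, with no H3K27ac peak in either list. Col1a1, the main bone and tendon collagen, stood at 22440 and 21972 CPM and had all 3 marks at an annotated end. Sox9, the master transcription factor of cartilage, stood at 4338 and 2890 CPM, with all 3 marks at an annotated end and H3K4me3 over its whole length. These genes have no listed start, and Actb (cytoskeletal actin) and Col9a3 (a cartilage collagen) were handled the same way. The others with all 3 marks at a start were Sparc, Fmod, Sdc4, Ubb, H3f3b, Col9a1, Col1a2, Serpinh1, Col6a1, Hspa5, Tsc22d1 and Lmna. Sparc had H3K27ac in both lists, as did Ubb and Serpinh1 (a collagen chaperone). Reads of Actb, ribosomal protein and glycolysis genes can be shared with processed pseudogenes, and, as the sources used here do not state the strand setting of the counting, those of overlapping or antisense genes cannot be told apart, so their levels are uncertain to that extent.

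Many of the highest expressed genes had H3K4me3 but no H3K27ac in either list. In the highest decile 46.0% of genes lacked H3K27ac and 578 of these had H3K4me3. The very top was not poorer in H3K27ac. It was at 71.0% of the 100 highest genes with a listed start, against 54.0% of the whole decile. Itm2a, a membrane protein gene of early cartilage, stood at 11261 and 12620 CPM with an H3K4me3 peak of 5016 bases. Cnmd, encoding the cartilage angiogenesis inhibitor chondromodulin, stood at 9920 and 6454 CPM with a peak of 4537 bases. Col9a2, Chad, Bgn, Mfge8, C1qtnf3, Wif1, Dusp1, Capn6, Nr4a1, Ccn1, Maged2, Col3a1 and Eno1 completed the 15 highest, between 1654 and 11941 CPM (means). All 15 also had H3K4me3 at the start in WT SSC and WT BCSP, as did 98.8% and 99.0% of the whole decile. For some of the 15 an H3K27ac peak lay just past the window, at 1.08 kb from the start of Ccn1, 1.84 kb from that of Col9a2 and 2.98 kb from that of Col3a1. Genes of the highest decile with H3K27ac had a median of 223 CPM and those without 202 CPM, so within this decile the levels of both groups lay close together. Their H3K4me3 peaks had median fold enrichments of 18.4 and 16.1.

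Highly expressed genes lacking marks were few. Of the 1284 genes of the highest decile with a listed start, 13 had no H3K4me3 there, of which 8 had H3K4me1 alone and 5 (0.389%) had no mark, against 30.8% unmarked over all genes and 10.4% over genes with a read. All 13 promoters were CpG-poor, with observed over expected values from 0 to 0.439. H3K4me3 lay elsewhere within the gene in 10 of the 13, among them long genes such as Sox5 (954 kb). The same share over all genes is not given here, so this count says nothing particular about these genes. For 6 of the 13 every listed start lay over 1000 bases inside the gene, and 5 of those 6 had H3K4me3 at the outermost annotated start. Sox5, a cartilage transcription factor, stood at 206 and 174 CPM, its listed start lay 835 kb from its outermost start, and H3K4me3 was at the latter. Zbtb20, a transcriptional repressor, stood at 276 and 178 CPM with a distance of 372 kb. Foxn3, a forkhead factor, stood at 178 and 209 CPM with 114 kb, and Rbm25, a splicing factor, at 174 and 228 CPM with 3.50 kb. The transcript 1520401A03Rik stood at 317 and 19.0 CPM, and its libraries thus differed more than those of the other 12. Tm4sf1, a tetraspanin-like membrane protein gene, stood at 163 and 159 CPM. It had H3K4me1 alone at its listed start and no mark at its outermost start.

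For the other 7 the listed start was within 12 bases of the outermost one. Matn1 (ENSMUSG00000040533; chr4:130944385-130955476) was the highest of them at 442 and 447 CPM, from 9927 and 8277 counts. It had an H3K4me1 peak of 1200 bases at the start and no H3K4me3 anywhere in the gene. Matn1 stood at 1096 and 568 CPM in WT SSC and 457 and 381 CPM in WT BCSP, and H3K4me3 was called at its start in SSC and not in BCSP. Sri, encoding the calcium-binding protein sorcin (chr5:8046078-8069314), stood at 248 and 188 CPM with its nearest H3K4me3 peak 9.53 kb from the start and 9.27% of the gene under H3K4me3. Thumpd1, an RNA acetylation cofactor gene, stood at 155 and 183 CPM with H3K4me3 2.08 kb away and over 22.0% of the gene. Ngef, a guanine exchange factor gene, stood at 171 and 177 CPM, and Rgs3, a regulator of G protein signalling, at 146 and 133 CPM; both had H3K4me1 at the start and H3K4me3 inside the gene. Zfp652, a zinc finger gene (chr11:95749067-95764715), stood at 106 and 137 CPM, and Angptl7, a secreted angiopoietin-like protein gene (chr4:148495181-148500462), at 173 and 61.0 CPM. Neither had a mark at the start or H3K4me3 within the gene, and Matn1 was the third gene of the 13 without H3K4me3 within the gene. None of the 13 had H3K4me3 at the start in BCSP and only Matn1 had it in SSC.

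The either-end placement named other genes. It left 40 of 1582 genes (2.53%) of the highest decile without a mark, but 34 of these had a listed start and 30 of the 34 were marked there, 29 of them with H3K4me3. Tpm3, a tropomyosin gene at 1239 and 1096 CPM, and Cdkn1a, the cell cycle inhibitor p21 at 886 and 906 CPM, were examples with all 3 marks at a listed start. The other 6, among them Ywhaz (739 and 815 CPM), had no listed start and each had H3K4me3 within the gene.

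Genes without a mark at a start were also found among expressed genes below the highest decile. The 25 highest unmarked genes ran from 218 down to 19.1 CPM, and all had CpG-poor promoters. H3K4me3 was within the gene in 18 and at an annotated end in 11, and the share within the gene over all genes is not given here. After the 5 of the highest decile came Zc3h14 (126 and 102 CPM), Ddr2, a collagen receptor gene (100.3 and 66.0 CPM), and Ackr2, a chemokine-scavenging receptor gene (50.1 and 63.3 CPM). Acta1 followed, 34.4 kb from the nearest H3K4me3 peak. Hbb-bs, adult beta globin, stood at 7.34 and 64.4 CPM with its nearest H3K4me3 peak 391 kb away. The remaining genes were Arhgap5, Ide, Gigyf1, Pla2g12a, Lpin1, Atg7, Zbtb46, Ppp2r3d, Macf1, Ccdc58, Gnb5, Dbpht2, 1110032A03Rik, Pi16 and M1ap.

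The reverse case, H3K4me3 with no RNA, was found at 428 of 4570 genes with no read (9.37%). Their peaks were narrow, with a median of 1086 bases, 47.4% of them had CpG-rich promoters against 2.66% of genes with no read and no H3K4me3, and 15 had H3K27ac. Another coding gene started within 1000 bases in 42 of the 428 (9.81%), and 34 of those neighbours had a read. The share with such a neighbour was 10.9% at marked genes of the lowest decile and 12.4% at those of the highest. At genes with no read and no H3K4me3 it was 0.579%, and the part of neighbours in these peaks was not tested. The peaks with the highest fold enrichment, 26.2 at Gm2436 down to 18.2 at Cfap52, included 6 with such a neighbour: Ak9, an adenylate kinase gene, lay beside a start read at 29.4 CPM, and Mdh1b, a malate dehydrogenase-like gene, beside one at 20.6 CPM. Zfp935, Gm3448, Gm3417, Raver1, Rnf151, Pet117, Tcte3, Dyx1c1, Gm16867 and 2 histone genes, Hist2h2aa1 and Hist2h3c1, made up the 15 strongest. Several belong to families of near-identical genes, and the treatment of reads shared between copies or overlapping genes is not stated, so their counts of 0 are uncertain.

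Gene lists written from general knowledge showed how the marks were spread over functional groups. The 26 lists hold 392 genes, of which 389 were placed and 282 had a listed start, and the counts of marked genes below are over the latter. Over all genes with a start, H3K4me3 was at 65.1% and H3K27ac in either list at 16.9%, and over those of the highest decile at 99.0% and 54.0%. The lists are small, and a count near these shares says nothing particular about its list. The shares also change with level, so for some lists the share of the decile that holds the list's median is given too.

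The chondrocyte list had the highest median level of the 26 lists, and the medians of the other skeletal lists lay far below it. Summed levels lay closer, at 73870 and 62208 CPM for the chondrocyte and 48725 and 43651 CPM for the osteoblast list. The 24 chondrocyte genes had a median of 1095 CPM, and 21 were in the highest decile. H3K4me3 was at 15 of 17 starts and H3K27ac in either list at 4, although 15 of the 17 were in the highest decile, where 54.0% of all genes had H3K27ac. The 4 were Col9a1, Ucma and Sox6 in list 1 and Hapln1, a link protein of cartilage matrix at 1241 and 1147 CPM, in both lists. Acan, the main cartilage proteoglycan, stood at 515 and 403 CPM under an H3K4me3 peak of 8258 bases, and Col11a1 at 1833 and 1403 CPM under 9135 bases. Of the hypertrophic chondrocyte list, H3K4me3 was at 6 of 9 starts and H3K27ac at none, and the median level was 16.5 CPM. Ihh, the signal of prehypertrophic cartilage, differed between libraries, at 31.2 and 0.756 CPM, and Col10a1, the hypertrophic collagen, was near the floor at 0.178 and 0.108 CPM with H3K4me1 alone. The osteoblast list, at a median of 7.10 CPM, had H3K4me3 at 5 of 10 starts and H3K27ac at 3: Sparc, Col1a2 and Atf4 had all 3 marks, Runx2, the bone lineage factor, had H3K4me3 at 26.6 and 14.1 CPM, and Bglap, a gene of mature bone cells, had no mark at 0.223 and 0.108 CPM.

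Limb mesenchyme and stromal progenitor genes had H3K4me3 at 18 of 19 starts and H3K27ac at none, with a median of 19.7 CPM. H3K27ac was at 16.9% of all genes and at 28.9% of decile 7, which holds this median. Prrx1, a limb mesenchyme factor, stood at 46.6 and 59.4 CPM under 6928 bases of H3K4me3, and Pdgfra, a receptor of stromal progenitors, at 81.7 and 113 CPM under 9705 bases. Pi16 was the 1 unmarked gene. Of the surface genes used in sorting schemes for this lineage, Itgav (integrin alpha V) stood at 71.7 and 65.2 CPM, Cd200 at 27.7 and 25.7 CPM and Eng (CD105) at 29.3 and 34.3 CPM, each with H3K4me3. Thy1 stood at 0.267 and 0.054 CPM, and Ptprc (CD45), a marker of blood cells, at 0.579 and 0.27 CPM with no mark.

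Ribosomal protein genes had the highest share with H3K27ac of the 26 lists. H3K4me3 was at all 15 listed starts and H3K27ac at 12, at a median of 216 CPM, and 13 of the 15 were in the highest decile, where 54.0% of all genes had H3K27ac. Among them Rpl4 (527 and 554 CPM) and Rps3 (323 and 322 CPM) had H3K27ac in both lists, and Rpl5 (1120 and 1088 CPM), the highest, in neither. Glycolysis genes had H3K4me3 at 13 of 13 starts and H3K27ac at 3, at a median of 183 CPM, close to that of the ribosomal genes. Oxidative phosphorylation genes had 8 of 8 and 1, and 5 of these 8 were in the highest decile. Of the 15 such genes placed, 6 had H3K27ac list 1 at an annotated end, against 0 of the 13 glycolysis genes. S phase genes had H3K4me3 at 10 of 10 and H3K27ac at 2, and G2 and M phase genes 10 of 10 and 4. The S phase count is near the 16.9% of all genes. Decile 8, which holds the median of the S phase list (43.3 CPM), had H3K27ac in either list at 34.5%.

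Immediate early genes, which respond within minutes to signals and to handling of cells, had a median of 1059 CPM, and 13 of 16 were in the highest decile. H3K4me3 was at all 14 listed starts, with a median peak width of 6384 bases, and H3K27ac at 8, against 54.0% of the highest decile. Fos stood at 2351 and 2421 CPM and had H3K27ac in list 1, Junb at 2395 and 1673 CPM in both lists, and Dusp1 at 2957 and 1485 CPM in neither. Genes of hedgehog, Wnt, BMP and Notch signalling had H3K4me3 at 17 of 17 starts at a median of 46.1 CPM. H3K27ac was at 3 of them, namely Notch2, Smo and Bmpr1a. That is near the 16.9% of all genes but below the 34.5% of decile 8, which holds this median. Among genes for PTIP and for other subunits of H3K4 methyltransferases, H3K4me3 was at 11 of 12 starts and H3K27ac at 5. H3K27ac was at 16.9% of all genes and at 25.2% of decile 6, which holds the list's median of 12.5 CPM. Paxip1 itself stood at 14.6 and 7.56 CPM with all 3 marks and H3K27ac in both lists.

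Hox genes were read at low level and nearly all had H3K4me3. Of 19 Hox genes with a listed start 18 had H3K4me3, at a median level of 1.69 CPM over the list, and Hoxb1 and Hoxd12 had no read. Transcription factors of other lineages had H3K4me3 at 15 of 22 starts with a median of 0 CPM and no H3K27ac. That H3K4me3 share is close to the 65.1% of all genes with a start, but above the 9.37% of genes with no read and 36.8% of decile 1. The promoters of this list had a median observed over expected value of 0.76, and CpG-rich genes with no read had H3K4me3 at 64.9%. Foxa2, an endoderm factor, stood at 5.16 and 2.48 CPM, while Otx2, Pax2, Neurog2 and Nkx2-2, neural and kidney regulators, had no read and H3K4me3 peaks of 2361, 2746, 2564 and 3246 bases. Terminal genes of other organs, such as Alb and Umod, had H3K4me3 at 1 of 12 starts with a median of 0.036 CPM. Replication-dependent histone genes had H3K4me3 at 11 of 11 starts and a median of 2.78 CPM.

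Blood, muscle and adipocyte genes were mostly read without H3K4me3 at the start. Leukocyte genes had a read in 19 of 20 but H3K4me3 at 2 of 13 starts, and summed to 116 CPM in replicate 1 and 78.2 CPM in replicate 2. S100a8, a neutrophil gene, stood at 16.02 and 15.13 CPM with no mark. Erythroid genes summed to 40.985 and 269.95 CPM, so replicate 2 was higher, and had H3K4me3 at 1 of 8 starts, Klf1. Hba-a1, alpha globin, stood at 23.6 and 130 CPM with H3K4me1 alone, and its near-identical copy Hba-a2 can share its reads. Skeletal muscle genes summed to 114 and 107 CPM and had H3K4me3 at 2 of 11 starts, and adipocyte genes to 91.1 and 70.4 CPM with 2 of 5. Endothelial genes had 4 of 7, pericyte and smooth muscle genes 5 of 6, and osteoclast, tendon and Schwann cell genes all of the 4, 4 and 3 with a listed start. Ptprc, Hbb-bs, Adipoq and Acta1 were unmarked in all 4 peak lists, but other blood, adipocyte and muscle genes had a mark. No mark was found at 10 of 13 leukocyte, 5 of 8 erythroid, 3 of 5 adipocyte and 6 of 11 skeletal muscle starts. The part of such cells in the unmarked genes with RNA was not tested.

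**Figure D5:**
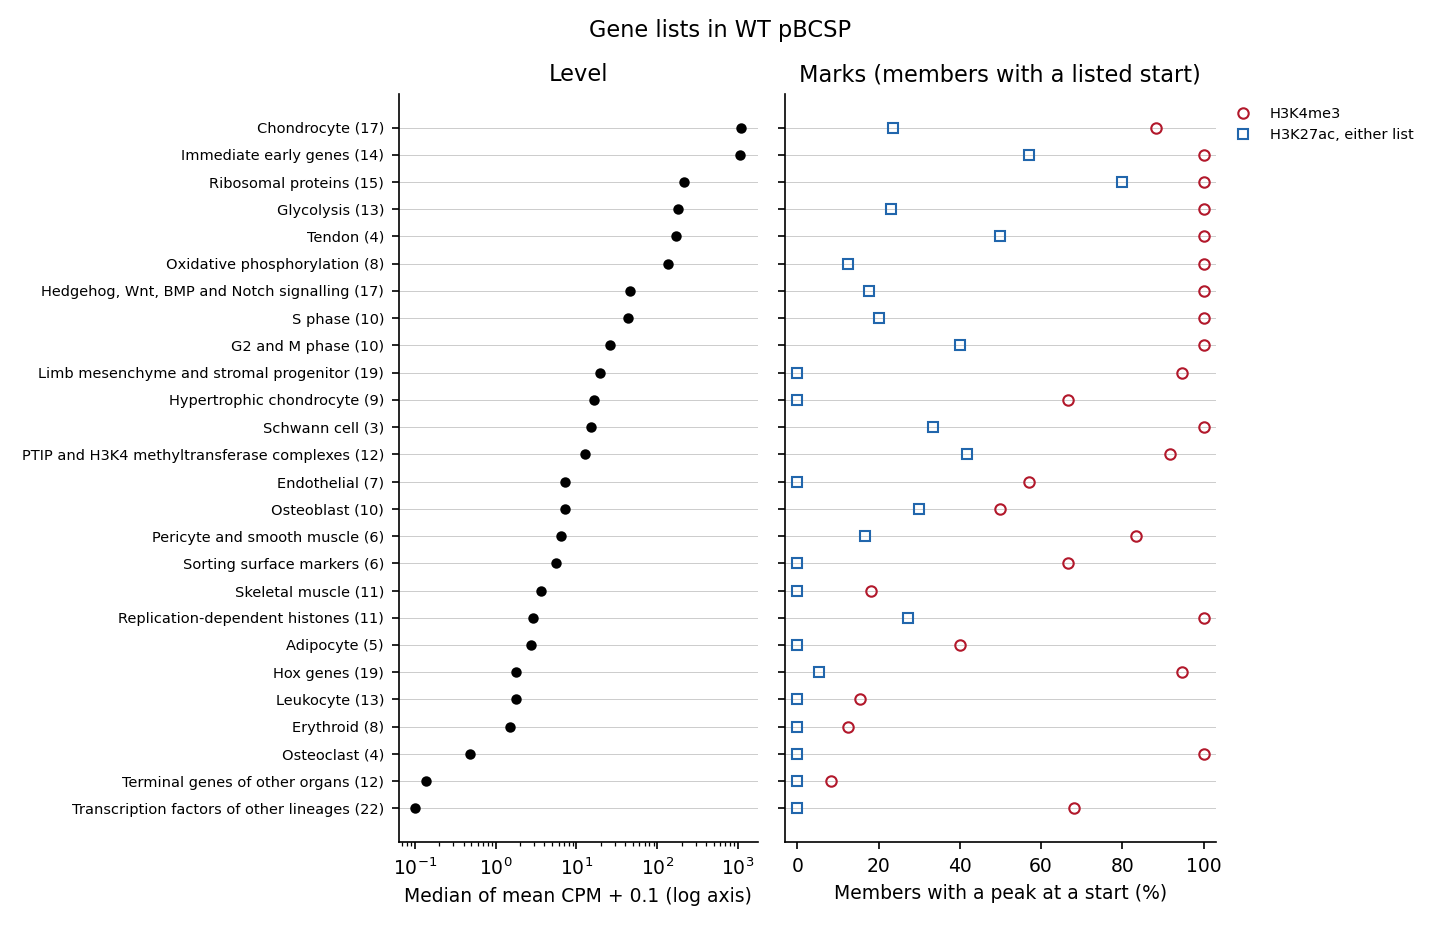
The 26 gene lists ordered by the median of their members' mean CPM (left panel, x axis on a log scale after adding 0.1), with the number of members that have a listed start in brackets. The right panel gives the share of those members with H3K4me3 (circles) or H3K27ac in either list (squares) at a start; Hox genes and transcription factors of other lineages stand at 18 of 19 and 15 of 22 for H3K4me3 at low level, and leukocyte, erythroid and muscle genes at low shares.

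Peak lists of the other WT populations were read at the same genes. At the 1284 highest-decile genes of pBCSP, H3K4me3 was at 98.8% in SSC (skeletal stem cells), 99.0% in pBCSP and 99.0% in BCSP (bone, cartilage and stromal progenitors). H3K27ac list 1 was at 20.7%, 48.8% and 53.5%, and list 2 at 0.935%, 22.1% and 2.57%. List 1 held 1828, 6879 and 6236 peaks and list 2 held 137, 3811 and 785. SSC had the shortest list and the lowest share in both sets, whereas BCSP had fewer list 1 peaks than pBCSP and a higher share. Differences in acetylation between populations cannot be told apart from differences in how much was called.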

How the data were processed

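The RNA files hold the deposited table of raw counts per gene, and the peak files hold the authors' peaks with a score, a fold enrichment (a ratio over background) and −log10 p and q values, all deposited per library. Tools listed without settings or order, per the submitters' processing notes, are MACS2 2.2.6, featureCounts 2.0.1, SAMtools 1.9, Bowtie2 2.3.5.1 and Trim Galore 0.6.6, with build GRCm38. Library sizes were scaled with edgeR 4.0.16 in R 4.3.3, and DESeq2 1.42.0 gave an alternative scaling; all else used Python 3.11.15 and scipy 1.17.1. The steps were checked on simulated data.

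Peaks were joined to genes by at least 1 shared base with the 1000 bases either side of a start. Starts came from the RefSeq promoter table (GRCm38.p6), which covers 80.4% of placed coding genes, and either annotated end served all of them. Named genes are the 20 highest, the 25 highest without a mark, the 15 highest with H3K4me3 and no H3K27ac, the 15 strongest H3K4me3 peaks without a read, the 12 widest, highest-decile genes lacking marks and members of the gene lists; any other was chosen after its values were seen. The genes and lists were chosen with earlier results of these data known. With 1 or 2 libraries a mark and no group contrast, no test was run, and values describe these libraries.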

Additional observations from a re-analysis of the deposited data

How the results depend on the processing

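Of 75 alternative values for 6 results, 36 stayed close to the main value and 39 moved, and the causes were not tested. Close meant within the Wilson interval of the main share or, for the count of unmarked genes, within 1.5 times. That interval treats genes as independent, so it served as a yardstick only and is not the error of these shares. The count of highest-decile genes without a mark (5) became 2 with a window of 5000 bases, 392 with every list cut to the shortest length, 40 at either annotated end, 13 with only the stronger peaks of each list (above its median by the authors' q), 15 at the outermost listed start, 16 when a peak had to cover at least 50% of the window and 3 among genes of at least 1 CPM. H3K27ac list 1 (48.8%) became 45.02% at 500 bases, 54.9% at 5000 bases, 46.1% over all placed genes, noncoding ones included, 35.0% at the shortest length, 44.4% at either end, 33.0% with stronger peaks and 10.98% with cover. H3K27ac list 2 (22.1%) became 17.0% at 500 bases, 27.6% at 5000 bases, 19.9% at either end, 11.5% with stronger peaks and 0.156% with cover. H3K4me1 (96.0%) became 73.0% at 500 bases, 99.7% at 5000 bases, 15.97% at the shortest length, 94.8% at either end, 88.6% with stronger peaks and 27.8% with cover. H3K4me3 in the highest decile (99.0%) became 50.7% at the shortest length, 95.4% at either end, 97.0% with stronger peaks, 97.6% at the outermost start and 97.6% with cover. H3K4me3 in the lowest decile (36.8%) became 45.3% at 5000 bases, 30.6% over all placed genes, noncoding ones included, 1.83% at the shortest length, 40.3% at either end, 19.3% with stronger peaks, 21.2% with cover and 81.2% among genes of at least 1 CPM. Leaving out 1 RNA replicate gave 44.4% to 46.9% for H3K4me3 in the lowest decile, 98.9% to 99.0% in the highest, 95.8% to 96.1% for H3K4me1, 48.8% to 49.6% and 21.7% to 22.6% for H3K27ac lists 1 and 2, and 4 to 5 unmarked genes.

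No paired analysis was possible because the results come from no test. Counts per kilobase of gene model were not run, since transcript lengths were not used here. Either annotated end and the outermost listed start were chosen after seeing the data. H3K4me3 and H3K4me1 have 1 library each, and both H3K27ac lists differ in layout, so replicate error of a mark cannot be given. Below decile 2 the RNA order rests on few counts.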

Other observations

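Highly expressed noncoding RNAs were marked like coding genes in part. Meg3, a maternally expressed imprinted RNA, stood at 1595 CPM in RNA replicate 1 and 1792 CPM in replicate 2, with H3K4me3 and H3K4me1 at the start. Malat1, a nuclear RNA, stood at 989 and 1395 CPM, and Gas5 and Tug1 at 188 and 212 CPM and at 165 and 137 CPM; all 3 marks were at each of these starts. H19, another imprinted RNA, stood at 813 and 804 CPM with H3K4me3 and H3K4me1 at an annotated end. Rian, from the same imprinted cluster as Meg3, stood at 187 and 152 CPM with H3K4me1 alone and its nearest H3K4me3 peak 8.82 kb away. B930095G15Rik stood at 281 CPM in both replicates with H3K4me1 and H3K27ac and no H3K4me3 within 22.7 kb. The pseudogenes Cd63-ps (209 and 195 CPM) and Gm7964 (131 and 135 CPM) had no mark at an annotated end, whereas Gm1821 (489.7 and 515 CPM) and Gm8797 (169 and 171 CPM) had H3K4me3 there and Eif4a-ps4 (126 and 123 CPM) all 3 marks. Reads of pseudogenes can be shared with their parent genes.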
